A study of Mus musculus with 48 samples.

Results

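Hmox1, Ftl1, Slc40a1 and Slc11a1, genes of haem breakdown, iron storage, iron export and phagosomal metal transport, were followed in 4 immune cell populations sorted from mouse colon tumours. The set was chosen by gene name and lists 5 genes. Of these, 4 were analysed among the 24537 genes of the count table, and Fth1, the heavy ferritin chain, is not analysed here. The series holds 48 libraries made by bulk 3′ sequencing of poly(A) RNA. All mice had been given AOM and DSS, the carcinogen azoxymethane and the colitis-inducing dextran sulfate sodium, and all samples are labelled day 85. Mice are labelled ko or ctrl for Ccl17, a chemokine gene. The series names ko animals kept in the same cages as controls and ko animals kept apart, but housing is not labelled per sample, and nothing used here states the strain, sex, age or allele. Cells were sorted by Ly6C, a surface protein of inflammatory monocytes, and by MHC class II, the complex that presents antigen to T cells. Per genotype there were 4 replicates of Ly6Chi MHCIIhi, Ly6Chi MHCIIlo and Ly6Clo MHCIIlo and 8 of Ly6Clo MHCIIhi. Replicate 2 of Ly6Chi MHCIIhi ctrl, at 8409 counts, was not used, so 39 replicates remained and Ly6Chi MHCIIhi ctrl has n = 3.

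Macrophages recycle iron by engulfing red cells and breaking down their haem. Haem oxygenase 1, the product of Hmox1, opens the haem ring and frees iron, carbon monoxide and biliverdin. The iron is stored in ferritin, a shell of heavy and light chains (Ftl1 encodes the light chain), or leaves the cell through ferroportin (Slc40a1), the iron exporter of vertebrates. Slc11a1, also called Nramp1, moves divalent metals across the phagosome membrane of phagocytes and takes part in resistance to intracellular microbes.

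On GRCm38, with GENCODE M21 gene models, Hmox1 lies on chromosome 8 (75093621 to 75100589, plus strand) and Ftl1 on chromosome 7 (45457944 to 45459884, minus strand). Slc40a1 (45908068 to 45926523, minus strand) and Slc11a1 (74375195 to 74386062, plus strand) lie on chromosome 1. Ferritin and ferroportin transcripts are known for the iron-responsive element, a 5′ UTR hairpin whose binding by iron regulatory proteins blocks translation when iron is scarce. The elements found in Ftl1 and Slc40a1 are shown because they are the sequence feature that the storage and export genes share. They are written 5′ to 3′ on the transcript strand, and capitals mark the bulged C and the loop.
Ftl1, chr7:45459779-45459806, minus strand: tcttgCttcaaCAGTGTttgaacggaac
Slc40a1, chr1:45925465-45925492, minus strand: aacttCagctaCAGTGTtagctaagttt
The search took a C, any 5 bases and then CAGTGN, on the transcript strand only, with the 5 bases before the loop able to pair with the 5 after it (G with T allowed). Motif and pairing together were found in the 5′ UTR of 31 of 20705 genes (0.15%), and the motif alone in 12.4%. The Slc40a1 element lies in 1 of its 4 coding transcripts with an annotated 5′ UTR, and the 5′ UTRs of Hmox1 and Slc11a1 held no match. These counts measure RNA, and translation was not measured.

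Libraries held 8409 to 500683 counts, with a median of 280060.5. Ccl17, the targeted gene, stood at 167 ± 270 CPM (counts scaled to library size; SD, n = 8) in Ly6Clo MHCIIhi ctrl, from 0 to 775 CPM, and at 3.05 ± 2.49 CPM (SD, n = 8) in Ly6Clo MHCIIhi ko, with a highest value of 6.72 CPM. In each group of the other populations it rested on 1 to 14 counts, too few to check a label. The deleted stretch is not given, and a 3′ count outside it would check nothing. The sort was visible in Ly6c2, at a mean of 525 and 1191 CPM in Ly6Chi MHCIIhi and MHCIIlo and 25.7 and 43.5 CPM in Ly6Clo MHCIIhi and MHCIIlo. It was also visible in Cd74, the MHC class II chaperone, at 9702 and 13457 CPM in Ly6Chi and Ly6Clo MHCIIhi against 1818 and 2598 CPM in the MHCIIlo populations; genes of the MHC class II chains are not analysed here. The 8 macrophage markers listed were all measured and summed to 19489 to 50201 CPM in Ly6Clo MHCIIhi and 21821 to 40215 CPM in Ly6Clo MHCIIlo, against 7043 to 14405 and 4818 to 8333 CPM in Ly6Chi MHCIIhi and MHCIIlo. Ly6Chi MHCIIhi ctrl replicate 1 stood apart, with 298649 CPM of the 4 haemoglobin transcripts and 77410 CPM of the 9 neutrophil markers, and values without it are given beside the main results that it touches. The labels do not say that replicates are separate mice, and the p-values given here reflect only how far these samples spread, which may be technical.

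**Figure D1:**
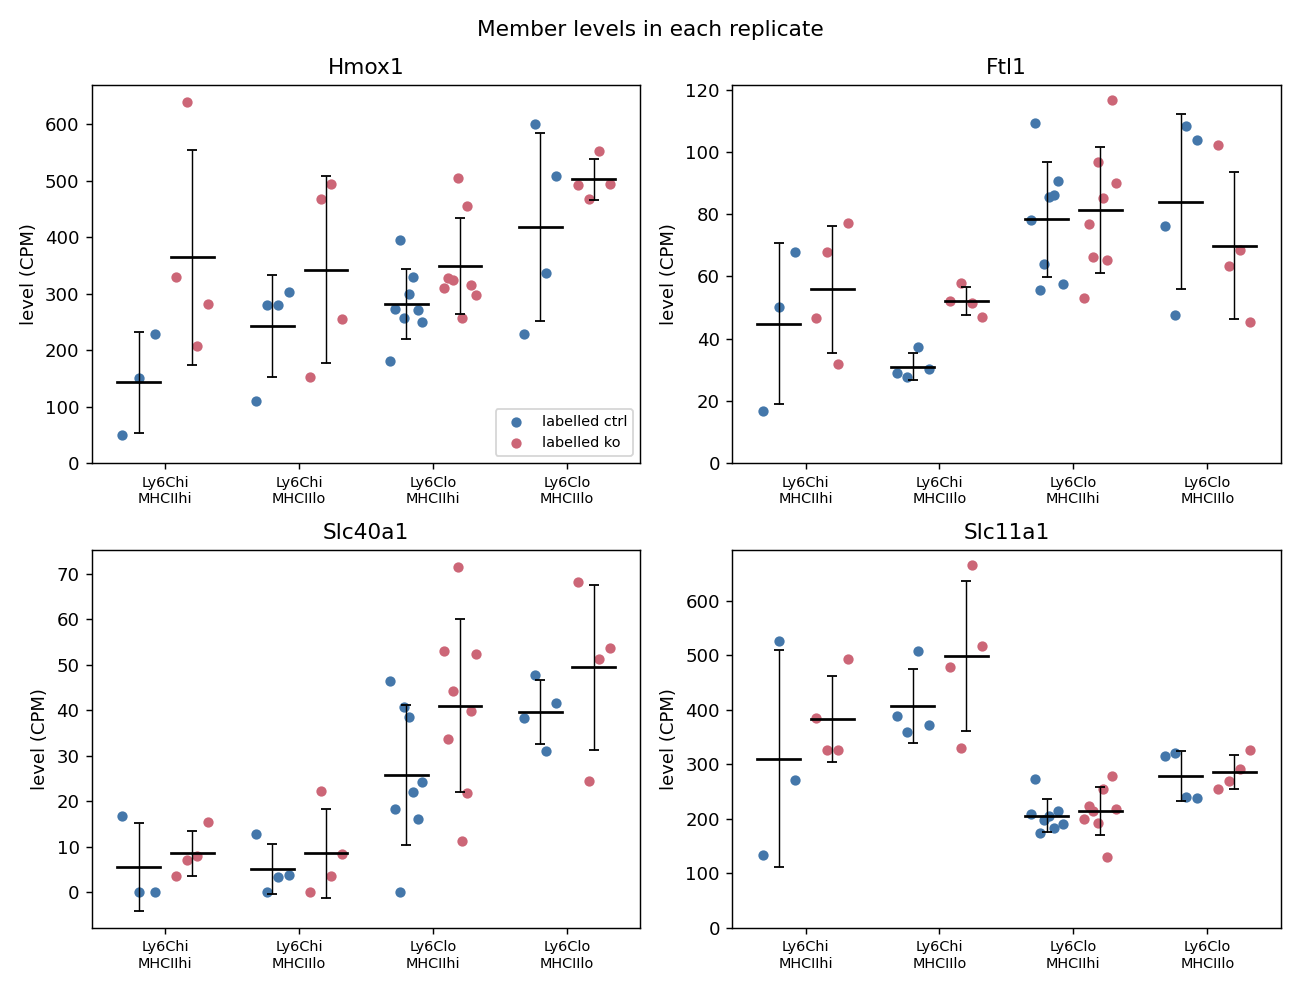
Level of each gene in CPM (y axis, linear) in every replicate (points) of the 4 sorted populations (x axis), labelled ctrl in blue and labelled ko in red, with the group mean as a black line and the SD as bars. Slc40a1 stays at or below 22.3 CPM in every Ly6Chi replicate, and Slc11a1 in Ly6Clo MHCIIhi stays below every Ly6Chi MHCIIlo replicate.

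Hmox1 was highest in Ly6Clo MHCIIlo, where the mean was 461 ± 120 CPM (SD, n = 8). The mean was 316 ± 80.1 CPM (SD, n = 16) in Ly6Clo MHCIIhi, 293 ± 134 CPM (SD, n = 8) in Ly6Chi MHCIIlo and 270 ± 187 CPM (SD, n = 7) in Ly6Chi MHCIIhi. Differences among the last 3 populations did not pass the test given below. In bulk samples, fewer cells of a type and less RNA per cell cannot be told apart.

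In Ly6Clo MHCIIlo, Hmox1 stood at 229, 600, 337 and 509 CPM in ctrl replicates 1 to 4 and at 494, 469, 553 and 495 CPM in ko replicates 1 to 4. In Ly6Chi MHCIIlo it stood at 109, 281, 281 and 304 CPM in ctrl and 153, 469, 494 and 255 CPM in ko. The 2 populations overlapped, with 4 of 8 Ly6Clo MHCIIlo replicates above the highest Ly6Chi MHCIIlo replicate and 7 of 8 above its mean. The log2 fold between them was 0.71 (SE 0.23) and passed edgeR's quasi-likelihood F test with Benjamini-Hochberg adjustment over all genes tested (adjusted p = 0.0162). In the ctrl samples alone (0.83, adjusted p = 0.0752) and the ko samples alone (0.64, adjusted p = 0.103) it did not pass. All adjusted p-values of single genes below come from this test, with 0.05 as the threshold.

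In Ly6Clo MHCIIhi the lowest, median and highest Hmox1 levels were 181, 272 and 396 CPM in ctrl and 258, 320 and 505 CPM in ko. Only 1 of these 16 replicates lay above the Ly6Clo MHCIIlo mean, and 3 of 8 Ly6Clo MHCIIlo replicates lay above all 16. Hmox1 was thus lower in the MHCIIhi than in the MHCIIlo cells of the Ly6Clo gate, by a log2 fold of -0.57 (SE 0.15, adjusted p = 0.00444). In the ctrl samples alone this fold was as large but did not pass (-0.57, adjusted p = 0.137).

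In Ly6Chi MHCIIhi, Hmox1 stood at 49.95, 150 and 229 CPM in ctrl replicates 1, 3 and 4 and at 331, 641, 207 and 281 CPM in ko replicates 1 to 4. The lowest value came from the library with high haemoglobin, and ctrl replicates 1 and 3 rest on 3 and 6 counts of Hmox1. The highest value came from ko replicate 2, and this population spanned a wider range than the others. Ly6Clo MHCIIlo was higher by a log2 fold of 0.80 (SE 0.27, adjusted p = 0.0322), with 7 of 8 replicates above the Ly6Chi MHCIIhi mean. That call passed without ctrl replicate 1 (0.63, adjusted p = 0.0399), but it was lost when any 1 of 7 other replicates was left out (Ly6Chi MHCIIhi ctrl 3, ctrl 4, ko 1, ko 3 or ko 4, and Ly6Clo MHCIIlo ctrl 4 or ko 3; adjusted p up to 0.0669), without libraries under 100000 counts (0.55, adjusted p = 0.0877), in the ctrl samples alone (1.35, adjusted p = 0.138) and in the ko samples alone (0.50, adjusted p = 0.150). Ly6Clo MHCIIhi did not pass against Ly6Chi MHCIIhi (0.17, SE 0.21, adjusted p = 0.647) or Ly6Chi MHCIIlo (0.10, SE 0.18, adjusted p = 0.681), and the Ly6Chi populations did not differ by the test (-0.10, SE 0.31, adjusted p = 0.930).

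Ftl1, the ferritin light chain, was higher in both Ly6Clo populations than in Ly6Chi MHCIIlo. The mean was 79.8 ± 18.8 CPM (SD, n = 16) in Ly6Clo MHCIIhi and 76.96 ± 25.2 CPM (SD, n = 8) in Ly6Clo MHCIIlo, against 51.1 ± 21.7 CPM (SD, n = 7) in Ly6Chi MHCIIhi and 41.6 ± 12.02 CPM (SD, n = 8) in Ly6Chi MHCIIlo. Of the Ftl1 transcript, 78.9% lies in stretches of 50 bases that also occur in transcripts of 15 other genes, Ftl1-ps1 among them, and 65.7% of its last 300 bases does. Its level is therefore uncertain, since the counting could split reads among these copies. Hmox1 and Slc40a1 share no such stretch, and Slc11a1 shares 0.838% of its transcript and 7.57% of its last 300 bases.

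In Ly6Chi MHCIIlo, Ftl1 stood at 28.9, 27.6, 37.2 and 30.4 CPM in ctrl and 52.1, 58.0, 51.5 and 47.0 CPM in ko. In Ly6Clo MHCIIlo it stood at 76.4, 47.7, 108 and 104 CPM in ctrl and 102, 63.4, 68.4 and 45.4 CPM in ko. Ctrl replicate 2 and ko replicate 4 of Ly6Clo MHCIIlo fell within the Ly6Chi MHCIIlo range, and 6 of 8 Ly6Clo MHCIIlo replicates exceeded every Ly6Chi MHCIIlo replicate. The log2 fold was 0.93 (SE 0.23, adjusted p = 0.00234), and in the ko samples alone it was 0.47 and did not pass (adjusted p = 0.262).

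In Ly6Clo MHCIIhi the lowest, median and highest Ftl1 levels were 55.6, 81.8 and 109 CPM in ctrl and 53.1, 80.9 and 117 CPM in ko. Of the 16 replicates, 13 exceeded the highest Ly6Chi MHCIIlo replicate, and the log2 fold was 0.96 (SE 0.16, adjusted p = 8.91e-06). This call held in every alternative run. The 2 Ly6Clo populations did not differ by the test (0.07, SE 0.17, adjusted p = 0.791).

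In Ly6Chi MHCIIhi, Ftl1 stood at 16.7, 50.1 and 67.8 CPM in ctrl and 46.7, 68.0, 31.8 and 77.01 CPM in ko. Ctrl replicates 1 and 3 rest on 1 and 2 counts of Ftl1, fewer than the 3 counts used for floors, so counting error enters the spread. The replicate at 16.7 CPM was again the library with high haemoglobin, and the population lay between the others with wide spread. Ly6Clo MHCIIhi was above it by 0.53 on the log2 scale, just short of the threshold (SE 0.20, adjusted p = 0.0607), and by 0.47 without that library (adjusted p = 0.0882). The value passed with each library as its own sample (0.57, adjusted p = 0.0366) and when Ly6Chi MHCIIhi ko 4 (0.63, adjusted p = 0.0476), Ly6Clo MHCIIhi ko 1 (0.55, adjusted p = 0.0458) or ko 3 (0.56, adjusted p = 0.0482) was left out. Ly6Clo MHCIIlo against Ly6Chi MHCIIhi (0.42, SE 0.26, adjusted p = 0.267) and the 2 Ly6Chi populations (0.39, SE 0.24, adjusted p = 0.442) did not pass.

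Slc40a1, the iron exporter, separated the Ly6Clo from the Ly6Chi populations most widely of the 4 genes by log2 fold. The mean was 44.5 ± 13.8 CPM (SD, n = 8; 70 counts) in Ly6Clo MHCIIlo and 33.3 ± 18.4 CPM (SD, n = 16; 281 counts) in Ly6Clo MHCIIhi. It was 7.25 ± 6.76 CPM (SD, n = 7; 9 counts) in Ly6Chi MHCIIhi and 6.76 ± 7.596 CPM (SD, n = 8; 15 counts) in Ly6Chi MHCIIlo, so the Ly6Chi levels rest on few counts.

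In Ly6Clo MHCIIlo, Slc40a1 stood at 38.2, 47.7, 31.0 and 41.5 CPM in ctrl and 68.1, 24.4, 51.3 and 53.7 CPM in ko. In Ly6Chi MHCIIlo it stood at 12.8, 0, 3.38 and 3.80 CPM in ctrl and 0, 22.3, 3.43 and 8.30 CPM in ko, where a count of 0 allows up to 13.8 CPM in ctrl replicate 2 and 9.20 CPM in ko replicate 1 (3 counts, counting error only). In Ly6Chi MHCIIhi it stood at 16.7, 0 and 0 CPM in ctrl, with floors of 75.1 CPM for replicate 3 and 12.7 CPM for replicate 4, and at 3.59, 7.16, 7.95 and 15.4 CPM in ko. Every Ly6Clo MHCIIlo replicate lay above every Ly6Chi replicate as measured, although the floor of Ly6Chi MHCIIhi ctrl replicate 3 reaches past them. Slc40a1 was under the count filter in these comparisons of Ly6Clo MHCIIlo, so its folds come from a fit with no count filter: 2.57 (SE 0.41, adjusted p = 1.69e-08) against Ly6Chi MHCIIlo and 2.60 (SE 0.50, adjusted p = 1.44e-05) against Ly6Chi MHCIIhi. In those fits 9.95% and 5.05% of all genes passed, 2.55% and 1.24% had groups that did not overlap, and the median log2 fold of all genes was 0.09 and 0.15. Among genes past the count filter the shares were larger: 39% and 25.4% passed, and 11% did not overlap against Ly6Chi MHCIIlo.

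In Ly6Clo MHCIIhi the lowest, median and highest Slc40a1 levels were 0, 23.1 and 46.4 CPM in ctrl and 11.2, 42.0 and 71.5 CPM in ko, with a floor of 20.8 CPM for the ctrl replicate at 0. Of the 16 replicates, 10 exceeded every Ly6Chi MHCIIlo replicate and 13 every Ly6Chi MHCIIhi replicate. The log2 fold was 2.36 (SE 0.47, adjusted p = 0.000127) against Ly6Chi MHCIIlo and 2.40 (SE 0.54, adjusted p = 0.00233) against Ly6Chi MHCIIhi. Both calls held in every alternative run in which Slc40a1 was tested, including the one without the high-haemoglobin library (2.54, adjusted p = 0.00177). In the reported fits Slc40a1 passed the count filter only through Ly6Clo MHCIIhi, where it is high. The calls are therefore not independent of that filter, and between the Ly6Chi populations Slc40a1 was not tested. The 2 Ly6Clo populations did not differ by the test (-0.34, SE 0.30, adjusted p = 0.418). Slc40a1 and the macrophage marker sum were both higher in the Ly6Clo populations, and the part of macrophage content in the fold was not tested.

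Slc11a1 ran the other way and was lowest in Ly6Clo MHCIIhi. The mean was 210 ± 36.8 CPM (SD, n = 16) there, 282 ± 36.1 CPM (SD, n = 8) in Ly6Clo MHCIIlo, 351 ± 134 CPM (SD, n = 7) in Ly6Chi MHCIIhi and 452 ± 112 CPM (SD, n = 8) in Ly6Chi MHCIIlo. Neighbours in this order differed by the test only for the lowest pair.

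In Ly6Clo MHCIIhi the lowest, median and highest Slc11a1 levels were 174, 202 and 273 CPM in ctrl and 130, 216 and 278 CPM in ko. In Ly6Chi MHCIIlo the gene stood at 388, 359, 507 and 372 CPM in ctrl and 478, 330, 666 and 517 CPM in ko. All 16 Ly6Clo MHCIIhi replicates lay below all 8 of Ly6Chi MHCIIlo; of all genes tested there, 5.21% did not overlap, counting both directions. The log2 fold of -1.10 (SE 0.11, adjusted p = 1.13e-09) held in every alternative run. In Ly6Clo MHCIIlo it stood at 315, 320, 240 and 239 CPM in ctrl and 255, 268, 291 and 326 CPM in ko, also below every Ly6Chi MHCIIlo replicate, where 11% of all genes did not overlap (log2 fold -0.64, SE 0.14, adjusted p = 0.00101), though the ctrl samples alone did not pass (-0.50, adjusted p = 0.0974).

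Within the Ly6Clo gate, 13 of 16 MHCIIhi replicates lay below the lowest MHCIIlo replicate, a log2 fold of -0.43 (SE 0.10, adjusted p = 0.00186). That call was lost in the ctrl samples alone (-0.47, adjusted p = 0.0609), in the ko samples alone (-0.38, adjusted p = 0.0944), with no count filter (-0.30, adjusted p = 0.259) and with the replicate number as a block (-0.42, adjusted p = 0.0503). In Ly6Chi MHCIIhi, Slc11a1 stood at 133, 525.9 and 271 CPM in ctrl and 384, 326, 326 and 492.9 CPM in ko. The low value of 133 CPM was that of the high-haemoglobin library, and 5 of 7 replicates lay above every Ly6Clo MHCIIhi replicate. Ly6Clo MHCIIhi was lower by a log2 fold of -0.71 (SE 0.14, adjusted p = 0.000805), or -0.80 (adjusted p = 3.97e-05) without that library; it did not pass in the ctrl samples alone (-0.61, adjusted p = 0.330) or with the replicate number as a block (-0.72, adjusted p = 0.0708). Ly6Clo MHCIIlo against Ly6Chi MHCIIhi (-0.28, SE 0.19, adjusted p = 0.300) and the 2 Ly6Chi populations (-0.37, SE 0.20, adjusted p = 0.388) did not pass.

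Slc11a1 is expressed by monocytes and neutrophils as well as macrophages. The 7 monocyte markers, all measured and none at 0 in a population, summed to 6043 to 9127 CPM in Ly6Chi MHCIIlo, 2165 to 7450 CPM in Ly6Chi MHCIIhi, 1241 to 2094 CPM in Ly6Clo MHCIIlo and 907 to 1779 CPM in Ly6Clo MHCIIhi, the same order as the Slc11a1 means. The 9 neutrophil markers, also none at 0, summed to 5871 to 19072 CPM in Ly6Chi MHCIIlo, 279 to 77410 CPM in Ly6Chi MHCIIhi (median 891), 4928 to 29627 CPM in Ly6Clo MHCIIlo and 184 to 1598 CPM in Ly6Clo MHCIIhi. The part of either list in the Slc11a1 and Hmox1 folds was not tested.

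**Figure D2:**
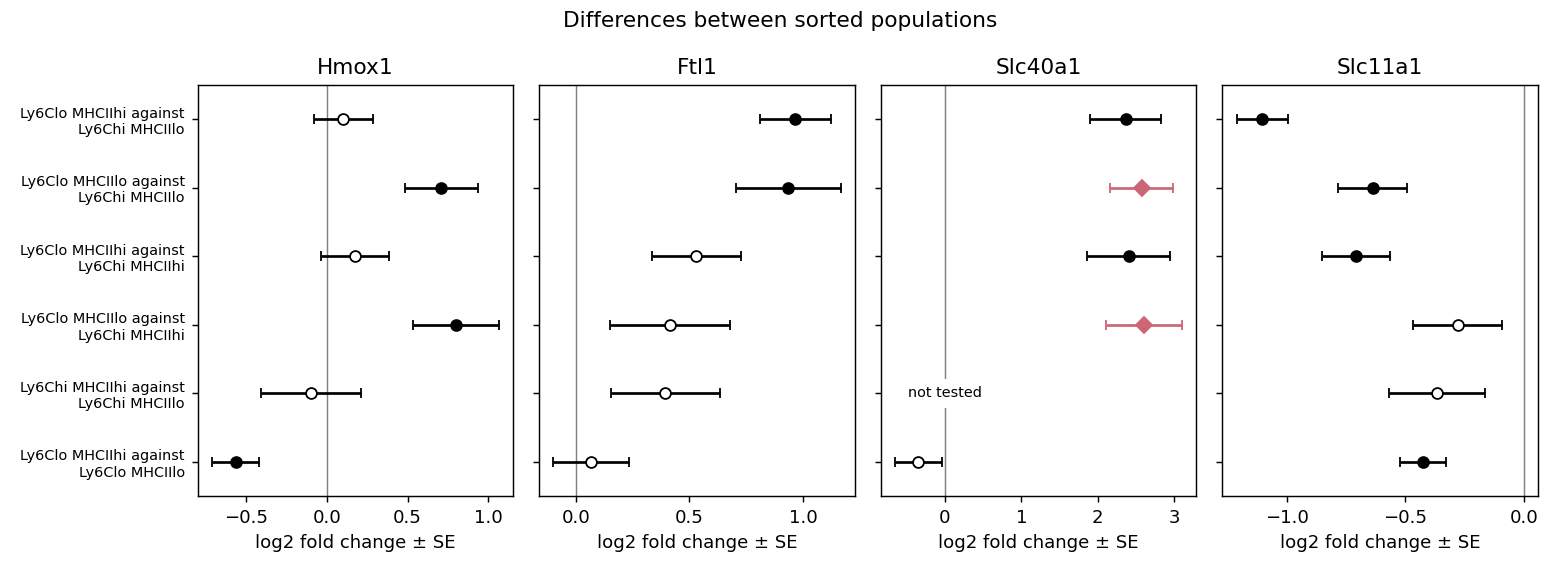
Log2 fold (x axis) with its SE for each gene in the 6 comparisons of sorted populations. Filled points have an adjusted p under 0.05, open points do not, and red diamonds are Slc40a1 from the fit with no count filter. Slc40a1 is to the right and Slc11a1 to the left of 0 in each comparison of Ly6Clo with Ly6Chi in which it was tested.

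The members called are to be read against all genes. In Ly6Clo MHCIIhi against Ly6Chi MHCIIlo, 3 of 4 members passed where 43.8% of all genes did, and in Ly6Clo MHCIIlo against Ly6Chi MHCIIlo, 3 of 3 where 39% did. In Ly6Clo MHCIIhi against Ly6Clo MHCIIlo 2 of 4 passed with 27.6% of all genes, and in Ly6Clo MHCIIhi against Ly6Chi MHCIIhi 2 of 4 with 17.4%. In Ly6Clo MHCIIlo against Ly6Chi MHCIIhi 1 of 3 passed with 25.4%. Between the Ly6Chi populations 0 of 3 passed with 3.23% of all genes, and 0 of 3 had an unadjusted p under 0.05 in edgeR or passed in DESeq2. The median log2 fold of all genes tested lay between -0.00 and 0.03 in these comparisons. Slc40a1 is among the members passed in the comparisons of Ly6Clo MHCIIhi with Ly6Chi, which it entered through the population where it is high. With shares this large, the counts of members say nothing particular about these genes.

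Labelled ko was then compared with labelled ctrl within each population, the genotype contrast of the series. No member passed in any population. Hmox1 was above the ctrl mean in 4 of 4, 3 of 4, 7 of 8 and 4 of 4 ko replicates of Ly6Chi MHCIIhi, Ly6Chi MHCIIlo, Ly6Clo MHCIIhi and Ly6Clo MHCIIlo. Its log2 folds in that order were 1.11 (SE 0.45, adjusted p = 0.709), 0.46 (SE 0.35, adjusted p = 0.636), 0.28 (SE 0.16, adjusted p = 0.951) and 0.28 (SE 0.24, adjusted p = 0.999). The first had an unadjusted p of 0.0307 and was 0.81 (adjusted p = 0.934) without the high-haemoglobin ctrl library. With any 1 replicate left out, the folds ran from 0.66 to 1.81, 0.21 to 0.72, 0.17 to 0.35 and 0.07 to 0.50 in the same order, and none passed. The 4 populations may come from the same mice, so they need not be separate observations.

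The group means of Hmox1 behind these folds were 143 ± 89.6 CPM (SD, n = 3) in ctrl and 365 ± 191 CPM (SD, n = 4) in ko of Ly6Chi MHCIIhi, and 282 ± 62.8 CPM in ctrl and 349 ± 84.8 CPM in ko of Ly6Clo MHCIIhi (SD, n = 8 each). The groups overlapped in all 4 populations. Ftl1 did not overlap in Ly6Chi MHCIIlo: all 4 ko replicates, at 47.0 to 58.0 CPM, lay above all 4 ctrl replicates, at 27.6 to 37.2 CPM. Its log2 fold was 0.70 (SE 0.29) with an unadjusted p of 0.0288 and an adjusted p of 0.399. Among all 3966 genes tested there, 7.19% had groups that did not overlap. In alternatives other than leaving out a replicate, this Ftl1 fold ran from 0.32 to 0.76, and none passed. Barcode class, described below, follows genotype fully in this population, so the effects of class and genotype on Ftl1 cannot be told apart.

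Ftl1 had log2 folds of 0.06 (SE 0.47) in Ly6Chi MHCIIhi, 0.12 (SE 0.16) in Ly6Clo MHCIIhi and -0.33 (SE 0.32) in Ly6Clo MHCIIlo, none past the threshold (adjusted p of 0.994 or more). The first turned to -0.16 without the high-haemoglobin library. Slc11a1 had folds of 0.26 (SE 0.37), 0.26 (SE 0.21), 0.13 (SE 0.12) and 0.04 (SE 0.19) in Ly6Chi MHCIIhi, Ly6Chi MHCIIlo, Ly6Clo MHCIIhi and Ly6Clo MHCIIlo, none past the threshold (adjusted p of 0.650 or more). The Slc11a1 fold in Ly6Chi MHCIIhi ran from 0.06 to 0.76 with a replicate left out. Slc40a1 could be tested in Ly6Clo MHCIIhi alone, where 6 of 8 ko replicates lay above the ctrl mean: 40.9 ± 19.0 CPM in ko and 25.8 ± 15.3 CPM in ctrl (SD, n = 8 each), a log2 fold of 0.61 (SE 0.34, adjusted p = 0.951).

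**Figure D3:**
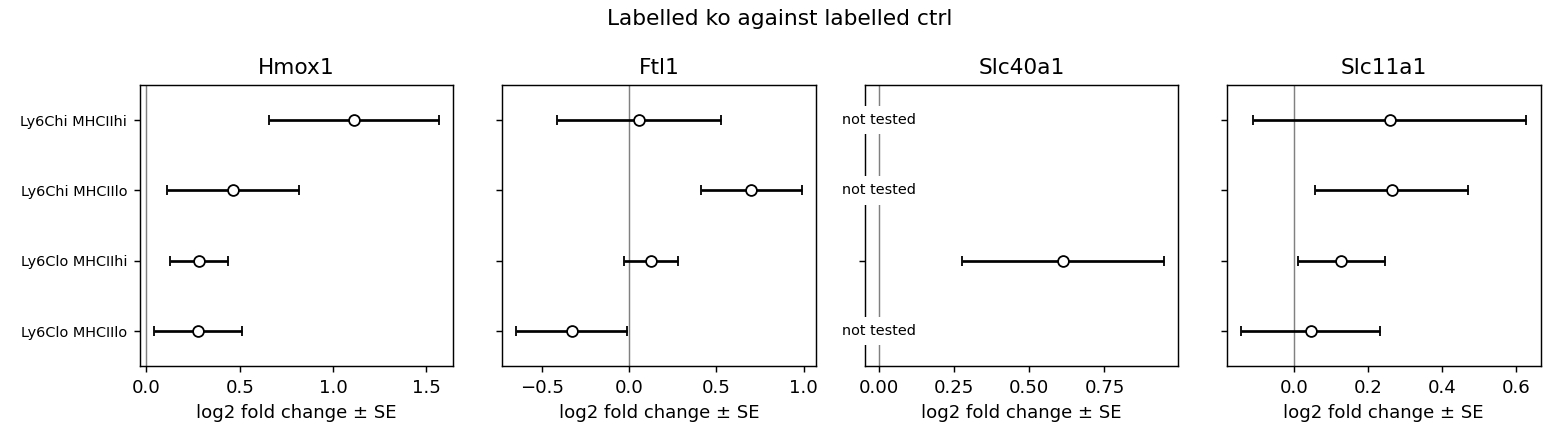
Log2 fold of labelled ko against labelled ctrl (x axis) with its SE for each gene in the 4 populations. All points are open, since none had an adjusted p under 0.05; Slc40a1 was tested in Ly6Clo MHCIIhi only.

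Across all genes, 0% passed in Ly6Chi MHCIIhi (0 of 3509 in edgeR, 245 at an unadjusted p under 0.05, 4 in DESeq2), 0.0756% in Ly6Chi MHCIIlo, 0% in Ly6Clo MHCIIhi (0 of 5660 in edgeR, 296 at an unadjusted p under 0.05, 0 in DESeq2) and 0.0314% in Ly6Clo MHCIIlo. Of the members, Hmox1 in Ly6Chi MHCIIhi and Ftl1 in Ly6Chi MHCIIlo had an unadjusted p under 0.05, and DESeq2 called 0 members in each population. The interaction of population and genotype gave 0 of 4 members in edgeR and in DESeq2, with 0 at an unadjusted p under 0.05 and 0.0663% of all genes called. A p that misses the threshold does not show equal levels.

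The labels also give a barcode per library, and barcodes rich in A and T (at most 2 of 6 bases G or C) or in G and C follow genotype. In Ly6Chi MHCIIhi, Ly6Chi MHCIIlo and Ly6Clo MHCIIlo all ctrl libraries are A/T-rich and all ko libraries G/C-rich, and the effects of genotype and of barcode class cannot be told apart. In Ly6Clo MHCIIhi the classes cross the genotypes, with 8 and 4 libraries of ctrl and 4 and 8 of ko A/T-rich and G/C-rich. Classes were compared there only in the 5 replicates with both, ctrl 5 to 8 and ko 4. Each of these ctrl replicates had its G/C-rich barcode first and its A/T-rich barcode second. Ko 4 had the reverse order, so class mostly followed library number, and their effects were not separated. Log2 folds of G/C-rich against A/T-rich libraries were 0.43 (SE 0.18, unadjusted p = 0.0220, adjusted p = 0.396) for Ftl1 and -0.16 (SE 0.11, adjusted p = 0.741) for Hmox1. The folds were 0.12 (SE 0.33, adjusted p = 0.972) for Slc40a1 and -0.11 (SE 0.12, adjusted p = 0.889) for Slc11a1. Of all genes 1.54% passed, and of the members 0 of 4 passed in edgeR, with Ftl1 alone at an unadjusted p under 0.05.

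Haemoglobin RNA was examined because red cells are a source of haem for Hmox1. The 4 haemoglobin genes, all measured, summed in Ly6Clo MHCIIhi to a lowest, median and highest of 29.1, 190 and 1505 CPM in ctrl and 413, 1376 and 12383 CPM in ko. In Ly6Clo MHCIIlo they summed to 1351, 177, 488 and 62.3 CPM in ctrl and 2848, 6716, 1631 and 1911 CPM in ko. The 4 ko libraries of Ly6Clo MHCIIlo all exceeded the 4 ctrl libraries in haemoglobin RNA, while the groups of Ly6Clo MHCIIhi overlapped. The share of all genes with no overlap was not computed for ko against ctrl in Ly6Clo MHCIIlo. In Ly6Chi MHCIIlo, also 4 against 4, it was 7.19% of genes tested, but a share from another population cannot stand in for it. How unusual the haemoglobin separation in Ly6Clo MHCIIlo is among all genes was therefore not tested. Barcode class follows genotype fully in Ly6Clo MHCIIlo, so the effects of class and genotype on haemoglobin RNA cannot be told apart. In Ly6Chi MHCIIlo the sum was 908, 55.3, 60.9 and 38.0 CPM in ctrl and 2073, 2125, 54.9 and 916 CPM in ko, and in Ly6Chi MHCIIhi it was 298649, 125 and 1067 CPM in ctrl and 1628, 1127, 87.5 and 870 CPM in ko, so these groups overlapped too. None of the 4 genes passed for ko against ctrl in any population, with adjusted p of 0.108 to 0.401 in Ly6Clo MHCIIlo. Of the 4, 3 passed the interaction of population and genotype (adjusted p of 0.0316 to 0.0326; 0.0544 for Hbb-bs), and without the high-haemoglobin library none did (adjusted p = 0.996 for each). The part of red cell RNA in the Hmox1 values was not tested beyond the relations within groups.

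Across replicates, log2(CPM + 1) of Hmox1 and of the haemoglobin sum gave Pearson's r = 0.71 and Spearman's rho = 0.69 in Ly6Clo MHCIIhi ko (n = 8, exact permutation p = 0.0741 and 0.0694, two-sided), and r = 0.60 without the 2 farthest samples. In Ly6Clo MHCIIhi ctrl r was -0.52 and rho -0.36 (n = 8, exact permutation p = 0.190 and 0.389). With ctrl and ko together, r was 0.29 and rho 0.33 in Ly6Clo MHCIIhi (n = 16, permutation p = 0.272 and 0.208). Without the 2 farthest samples r was 0.0019 there. Also with ctrl and ko together, r was -0.15 in Ly6Clo MHCIIlo, -0.39 in Ly6Chi MHCIIlo and -0.57 in Ly6Chi MHCIIhi. The last turned to 0.70 without the 2 farthest samples, the high-haemoglobin library among them. In all, 12 relations of Hmox1 or Slc40a1 with haemoglobin were computed, and the adjusted permutation p was 0.50 to 0.88 for Pearson's r and 0.693 to 0.793 for Spearman's rho, so none passed.

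**Figure D4:**
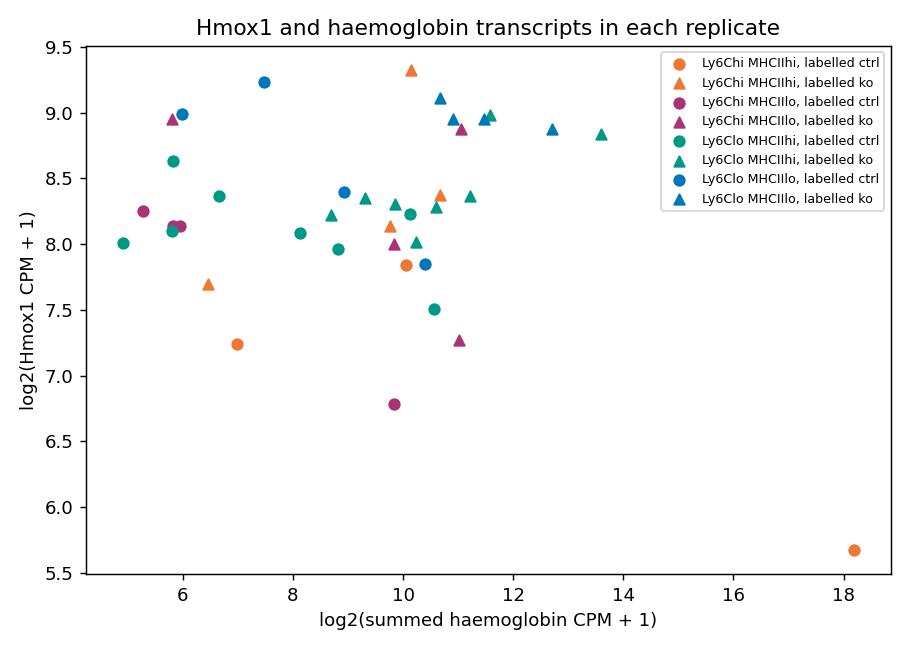
Hmox1 against the summed level of 4 haemoglobin genes, both as log2(CPM + 1), with 1 point per replicate, coloured by population, circles for labelled ctrl and triangles for labelled ko. The point far to the right is Ly6Chi MHCIIhi ctrl replicate 1, at 298649 CPM of haemoglobin and 49.95 CPM of Hmox1.

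A list of 56 other genes of iron and haem handling, 53 of them in the count table, places the members in their pathway. The list was chosen with earlier results of these data known. Its shares called, here and below, are therefore described and not read as a result about the pathway. In Ly6Clo MHCIIhi against Ly6Chi MHCIIlo 10 of 32 tested genes were higher and 12 lower (68.8%, against 43.8% of all genes), with a list median of -0.02. Of the 4 tested genes of haem transport and breakdown, 3 were higher: Blvrb, a biliverdin reductase acting downstream of haem oxygenase (log2 fold 1.61, adjusted p = 1.27e-09), Blvra, the other biliverdin reductase (0.66, adjusted p = 0.00122), and Slc48a1, a haem transporter of the phagolysosome (0.62, adjusted p = 0.000982). Also higher were Trf, the plasma iron carrier transferrin (1.22, adjusted p = 1.62e-08), the macrophage transcription factor Maf (1.42, adjusted p = 1.82e-07) and Cp, the ferroxidase ceruloplasmin that works with ferroportin (4.85, adjusted p = 1.96e-07). Cp was at 0.802 ± 2.27 CPM (SD, n = 8) in Ly6Chi MHCIIlo, so its fold depends on the prior count. Blvra and Slc48a1 were named after their values were seen, and Hmox1 itself did not pass in this comparison (0.10, adjusted p = 0.681). Of the 4 tested ferroxidases and iron binders, 1 was higher and 3 were lower.

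The lower genes of that comparison were led by Hp, haptoglobin, which binds free haemoglobin (-2.90, adjusted p = 1.12e-12), Ltf, the iron binder lactoferrin of neutrophil granules (-5.68, adjusted p = 1.10e-10), Lrp1, a receptor for haem bound to haemopexin (-0.98, adjusted p = 9.55e-08), and Bach1, a haem-sensitive repressor of Hmox1 (-1.28, adjusted p = 1.02e-06). Ltf is a neutrophil gene, and the neutrophil markers were 5871 to 19072 CPM in Ly6Chi MHCIIlo against 184 to 1598 CPM in Ly6Clo MHCIIhi; their part in these folds was not tested.

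In Ly6Clo MHCIIlo against Ly6Chi MHCIIlo 5 of 25 list genes were higher and 6 lower (44%, against 39% of all genes; list median -0.22). Blvrb (1.63, adjusted p = 2.14e-08), Trf (1.16, adjusted p = 6.50e-08), the peroxidase Prdx1 (1.29, adjusted p = 1.06e-07) and Maf (1.43, adjusted p = 5.93e-07) were higher. Hp (-2.02, adjusted p = 8.33e-09), Bach1 (-2.23, adjusted p = 1.54e-08), the thioredoxin reductase Txnrd1 (-0.56, adjusted p = 0.00488) and the mitochondrial iron carrier Slc25a28 (-0.63, adjusted p = 0.0260) were lower. The Slc25a28 call was lost when Ly6Clo MHCIIlo ctrl 3 or ko 4, or Ly6Chi MHCIIlo ctrl 1, ctrl 2 or ko 1, was left out (adjusted p up to 0.0751). Bach1 was at 47.3 ± 10.7 CPM in Ly6Clo MHCIIlo (SD, n = 8), 89.9 ± 37.0 CPM in Ly6Clo MHCIIhi (SD, n = 16), 143 ± 34.2 CPM in Ly6Chi MHCIIhi (SD, n = 7) and 238 ± 99.5 CPM in Ly6Chi MHCIIlo (SD, n = 8).

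Within the Ly6Clo gate 3 of 28 list genes were higher in MHCIIhi and 6 lower (32.1%, against 27.6% of all genes; list median -0.13). Higher were Hfe, the hepcidin regulator (1.17, adjusted p = 9.75e-05), Bach1 (1.00, adjusted p = 0.000784) and the iron chaperone Pcbp1 (0.29, adjusted p = 0.0478), a call lost in most alternatives. Lower were Lrp1 (-0.75, adjusted p = 6.20e-05), Prdx1 (-0.46, adjusted p = 0.00231), the cystine importer Slc7a11 (-0.65, adjusted p = 0.00629) and Hp (-0.85, adjusted p = 0.00840).

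Against Ly6Chi MHCIIhi, 5 of 29 list genes were higher and 7 lower in Ly6Clo MHCIIhi (41.4%, against 17.4% of all genes; list median -0.11). Maf (1.33, adjusted p = 5.53e-06), Trf (1.09, adjusted p = 1.49e-05), Hfe (1.26, adjusted p = 0.000317) and Cp (2.13, adjusted p = 0.00702) were higher. Hp (-2.02, adjusted p = 5.70e-07), Slc7a11 (-0.98, adjusted p = 0.00108), the mitochondrial iron carrier Slc25a37 (-2.03, adjusted p = 0.00268) and the metal importer Slc39a14 (-1.17, adjusted p = 0.00639) were lower. Slc25a37, a gene of red cell precursors, did not pass without the high-haemoglobin library (-0.80, adjusted p = 0.0913), and Slc39a14 did not without Ly6Chi MHCIIhi ctrl replicate 4 (-0.98, adjusted p = 0.0567).

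In Ly6Clo MHCIIlo against Ly6Chi MHCIIhi 3 of 25 list genes were higher and 3 lower (24%, against 25.4% of all genes; list median -0.04). Higher were Maf (1.29, adjusted p = 5.20e-06), Trf (0.97, adjusted p = 8.08e-05) and Prdx1 (1.09, adjusted p = 0.00154). Lower were Bach1 (-1.57, adjusted p = 7.39e-06), Hp (-1.15, adjusted p = 0.000744) and Slc25a37 (-1.63, adjusted p = 0.0372), and Slc25a37 did not pass without the high-haemoglobin library (-0.22, adjusted p = 0.607) or without Ly6Clo MHCIIlo ctrl 1, ctrl 3, ctrl 4 or ko 1 (adjusted p up to 0.0679). Without that library 7 list genes were higher and 5 lower. The share of all genes in that run is not given here, so this count is not read as a change in the list. Over all alternatives the genes called in this comparison ranged from 31 to 1244 (898 in the reported fit). Between the Ly6Chi populations only Blvrb (1.25, adjusted p = 0.0142) was higher and Hp (-0.83, adjusted p = 0.0176) lower in MHCIIhi among 26 list genes (7.69%, against 3.23% of all genes; list median 0.03). Without the high-haemoglobin library the Blvrb fold was 0.93 (adjusted p = 0.0144), and in the ctrl samples alone Blvrb did not pass (1.51, adjusted p = 0.405). Without that library 3 list genes were lower, again with no share of all genes given. Over all alternatives the genes called here ranged from 0 to 304 (133 in the reported fit). The Hp call was lost without Ly6Chi MHCIIlo ko replicate 4 (-0.75, adjusted p = 0.0571).

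**Figure D5:**
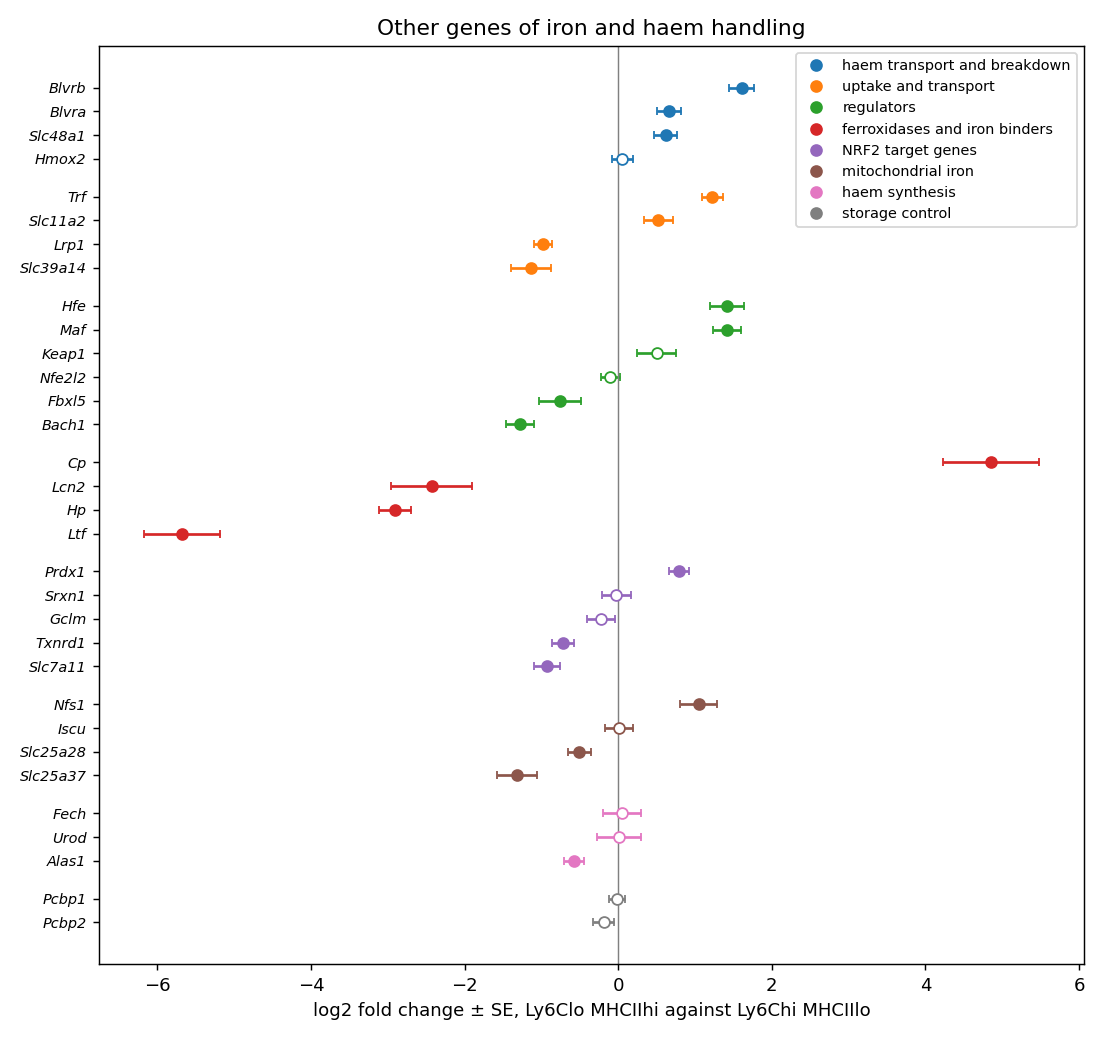
Log2 fold (x axis) with its SE of the 32 tested genes of iron and haem handling in Ly6Clo MHCIIhi against Ly6Chi MHCIIlo, coloured by role. Filled points have an adjusted p under 0.05: 10 lie to the right of 0 and 12 to the left, with Cp and Ltf at the ends.

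For ko against ctrl, 0 list genes passed in edgeR among 24, 25, 33 and 21 tested in Ly6Chi MHCIIhi, Ly6Chi MHCIIlo, Ly6Clo MHCIIhi and Ly6Clo MHCIIlo. At an unadjusted p under 0.05 there were 3, 4, 1 and 1, and DESeq2 called 0 in each.

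The genes whose levels ran most like a member's were ranked by Pearson's r of log2(CPM + 1) over the 39 replicates, among 5339 genes with a mean of at least 20 CPM; replicates share population, so r largely follows the sort. Ftl1 ran most like Ctsb (0.79), Ctsz (0.79), Hsd17b12 (0.78), Lgmn (0.77) and Bmyc (0.77), of which Ctsb, Ctsz and Lgmn encode lysosomal proteases. Slc40a1 ran most like Camk1 (0.85), Blnk (0.85), Mvb12b (0.84), Pnpla7 (0.79) and Cd63 (0.79). Slc11a1 ran most like Osm (0.87), Anxa2 (0.85), Snx18 (0.83), Itgam (0.83) and Cd44 (0.83). Hmox1 had the lowest leading values, with Psmd1 (0.72), Dnajc14 (0.71), Lpp (0.70), Mlf2 (0.68) and Acp2 (0.67).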

How the data were processed

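Poly(A) RNA of sorted tumour immune cells was sequenced from the 3′ end with a barcode per library, per the labels' protocols. In the deposited table each cell is a raw count of 1 gene symbol in 1 library, with no normalization by the authors recorded. GRCm38, R 3.4.4 and DESeq2 1.18.1 are named in the submitters' processing notes; the aligner, the counter, the annotation and the kind of count (reads or molecular identifiers) are each not given in the sources used here. One row that names no gene (127 counts, 0.000967%) was left out. Members and gene lists were chosen with earlier results of these data known.

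Second libraries of 8 Ly6Clo MHCIIhi replicates were added to the first, and libraries under 0.1 of the median total (28006.05 counts) were left out, which removed 1. Totals per replicate bound the precision, and floors for a count of 0 use 3 counts. CPM used TMM library sizes. Tests were edgeR 4.0.16 quasi-likelihood F tests (R 4.3.3; filterByExpr, minimum count 10, minimum total 15) with p-values adjusted over every gene tested (Benjamini-Hochberg) and a threshold of 0.05. Genotype was a covariate between populations. DESeq2 1.42.0 was an alternative, with other size factors, no count filter, library handling, single genotypes, a replicate block, barcode class and each replicate left out. Leaving out libraries under 100000 counts, and the high-haemoglobin library in the haemoglobin interaction, was chosen after seeing the data. Whether equal replicate numbers deviate together was checked, and in no comparison did every pair exceed a correlation of 0.1. Between the Ly6Chi populations the correlations ran from 0.077 to 0.255 over 7 pairs. Relations used permutation tests (scipy 1.17.1; exact for n under 10, otherwise 100000 resamples). All members are named; list genes are named up to 4 per direction by smallest p among those past the threshold, and Blvra and Slc48a1 were named after their values were seen. The 5 genes most like each member are named, without predicted genes and antigen receptor segments.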

Additional observations from a re-analysis of the deposited data

Results flagged for a closer look

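In 28 groups of 4 to 8 samples, each gene's highest and lowest sample was compared with its nearest neighbour, and 2 lay far from the rest; chance alone gives about 1 in 20. Hmox1 in Ly6Chi MHCIIlo ctrl replicate 1 stood at 109 CPM, with the next lowest replicate at 281 CPM. Slc11a1 in Ly6Clo MHCIIhi ctrl replicate 2, a library of 51630 counts, stood at 273 CPM, with the next highest at 214 CPM.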

How the results depend on the processing

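Of 882 alternative values of the members' folds, 834 kept direction and side of the threshold, 21 lost a call, 4 gained one and 23 turned sign; the cause was not tested. Of 1161 values of named list genes, 1098 kept their call and 63 lost it. No fold that passed turned sign. Members called in Ly6Clo MHCIIhi against Ly6Clo MHCIIlo went from 2 to 1 with no count filter, with the replicate block and in ko only, and to 0 in ctrl only. In Ly6Clo MHCIIhi against Ly6Chi MHCIIhi they went from 2 to 1 with the block and 0 in ctrl only, in Ly6Clo MHCIIlo against Ly6Chi MHCIIlo from 3 to 1 in ctrl only and in ko only. In Ly6Clo MHCIIlo against Ly6Chi MHCIIhi they went from 1 to 2 with no count filter, with the block and with all 8 groups in 1 fit, to 0 in ctrl only and in ko only, and lay between 0 and 2 when each replicate was left out. With the replicate block, Slc11a1 in the first 2 of these lost its call (-0.42, adjusted p = 0.0503, and -0.72, adjusted p = 0.0708). Genes called fell from 1199 to 748 and from 860 to 443 there, where replicates 5 to 8 of Ly6Clo MHCIIhi have no partner. Against Ly6Chi MHCIIlo, Ly6Clo MHCIIhi fell from 2278 to 1959 and Ly6Clo MHCIIlo rose from 1498 to 1801. Ly6Clo MHCIIlo against Ly6Chi MHCIIhi fell from 898 to 800, and the Ly6Chi populations rose from 133 to 162. The labels do not say whether equal replicate numbers in different populations are the same mouse. Ctrl replicate 1 had the highest haemoglobin sum of the ctrl replicates used in every population. In Ly6Chi MHCIIhi, Ly6Chi MHCIIlo, Ly6Clo MHCIIlo and Ly6Clo MHCIIhi it was 298649, 908, 1351 and 1505 CPM. That replicate also had the lowest ctrl Hmox1 in each, at 49.95, 109, 229 and 181 CPM. Whether the populations share mice was not tested.

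Folds near 0 turned sign. Ftl1 in ko against ctrl of Ly6Chi MHCIIhi was -0.27 with barcode class as a term, -0.20 without libraries under 100000 counts and -0.16 to 0.74 with a replicate left out, and in Ly6Clo MHCIIhi -0.072 with library 1 only. Hmox1 in Ly6Chi MHCIIhi against MHCIIlo was 0.16 in ko only, 0.089 without those small libraries and -0.38 to 0.038 with a replicate left out. Hmox1 in Ly6Clo MHCIIhi against Ly6Chi MHCIIhi was -0.12 in ko only and -0.075 without small libraries, and against Ly6Chi MHCIIlo -0.017 to 0.22 with a replicate left out. Ftl1 between the Ly6Clo populations was -0.0064 with the replicate block, -0.15 in ctrl only and -0.021 to 0.18 with a replicate left out. Left-out replicates gave -0.047 to 0.12 for Slc11a1 in ko against ctrl of Ly6Clo MHCIIlo and -0.088 to 0.35 for Slc40a1 by barcode class. Without the 2 farthest samples, r with haemoglobin was 0.70 and 0.46 for Hmox1 in Ly6Chi MHCIIhi and Ly6Clo MHCIIlo and 0.27 for Slc40a1 in Ly6Clo MHCIIhi ko.

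Over all alternatives the genes called ranged from 0 to 304 (133 in the reported fit) between the Ly6Chi populations, 325 to 1374 (1199) between the Ly6Clo populations, 56 to 1091 (860) for Ly6Clo MHCIIhi against Ly6Chi MHCIIhi, 1257 to 3000 (2278) against Ly6Chi MHCIIlo, 31 to 1244 (898) for Ly6Clo MHCIIlo against Ly6Chi MHCIIhi and 766 to 2005 (1498) against Ly6Chi MHCIIlo. For ko against ctrl they ranged up to 61, 57 and 24 (3, 0 and 1) in Ly6Chi MHCIIlo, Ly6Clo MHCIIhi and Ly6Clo MHCIIlo. In Ly6Chi MHCIIhi (0) they ranged up to 36 with the filter, and with no count filter 0.694% of 16279 genes passed. They ranged for the interaction from 0 to 112 (4) and for barcode class from 56 to 122 (94). The Fth1 to Ftl1 ratio was not run. Depth limits Slc40a1 most, with 9 and 15 counts in the Ly6Chi populations.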

Other observations

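In Ly6Clo MHCIIhi, 8 replicates had 2 libraries each, which shows how far the members' levels move between libraries of the same replicate. The ratio of the higher to the lower library had a median of 1.09 for Slc11a1 (1.01 to 1.21), 1.24 for Ftl1 (1.05 to 1.72), 1.29 for Hmox1 (1.05 to 1.70) and 1.67 for Slc40a1 (1.09 to 5.91). Slc40a1, the member with the fewest counts, had the widest ratio: ctrl replicate 8 held 12 counts in 1 library and 1 count in the other.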
